A study of Mus musculus with 4 samples.

Results

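The G1 cyclins, cyclin-dependent kinases (CDKs) and CDK inhibitors were followed here through 10 genes, Ccnd1, Ccnd2, Ccnd3, Cdk2, Cdk4, Cdk6, Cdkn1b, Cdkn2a, Cdkn2c and Rb1. They were taken as every probe set that the platform annotation gives to 1 of these genes alone, which made 21 of the 20380 non-control probe sets with a single gene symbol. Ccnd2 had 7 probe sets, Ccnd1 and Cdk4 had 3 each, Cdkn1b had 2, and the other genes had 1 each. The series compared neural stem cell cultures labelled Olig1 KO with 1 labelled wild type, on Affymetrix arrays with 1 array per sample. There were 3 Olig1 KO arrays, called KO replicates 1, 2 and 3 here, and 1 wild-type array. All 4 cultures came from ganglionic eminences, the ventral forebrain zones that produce interneurons and early oligodendrocyte precursors, at embryonic day 14.5. All were on a C57/Bl6 background and were kept in serum-free medium with EGF, a growth factor that itself drives entry into the cell cycle. The Olig1 allele is not described in the labels. Nor do they tie the KO samples to different embryos or dishes, and p-values here reflect the spread among those 3 arrays, be it technical or biological.

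In the G1 phase of the cell cycle, D-type cyclins bind CDK4 or CDK6, and the active kinases phosphorylate the retinoblastoma protein encoded by Rb1. Phosphorylated retinoblastoma protein releases E2F transcription factors, which switch on genes for DNA synthesis, and CDK2 with its E-type cyclins completes this step. Inhibitors of the INK4 group, encoded by Cdkn2a and Cdkn2c, block CDK4 and CDK6, whereas p27, encoded by Cdkn1b, mainly blocks CDK2 complexes. In the forebrain, cyclins D1 and D2 are the D-type cyclins of dividing progenitors, and the length of G1 is tied to the choice between division and differentiation.

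Promoter sequences from RefSeq (GRCm38.p6) were at hand for 7 of the 10 genes. Windows of 300 bases, 250 before and 50 after the start of the gene, are shown for 3 genes whose regulation is tied to the same pathway. The Cdk4 window lies at chr10:127063285-127063584 on the plus strand, with each E-box (CACGTG, the site of Myc-type factors, which reads the same on both strands) in capitals.
Cdk4: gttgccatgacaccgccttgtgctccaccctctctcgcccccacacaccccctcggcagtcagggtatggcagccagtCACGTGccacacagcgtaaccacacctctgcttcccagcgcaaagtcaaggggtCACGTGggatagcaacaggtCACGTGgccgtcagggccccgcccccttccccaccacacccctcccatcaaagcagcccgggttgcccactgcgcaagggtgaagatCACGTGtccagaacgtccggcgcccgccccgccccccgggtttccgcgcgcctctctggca
It held 4 E-boxes, whose first bases lay 172, 118, 98 and 11 bases before the start, while 7.15% of all 32851 promoter windows held at least 1. Of the 10 windows of the 7 genes, 3 held an E-box. The Cdk2 window lies at chr10:128705002-128705301 on the minus strand, with a match to the E2F motif TTTCCCGC (GCGGGAAA on the other strand) in capitals.
Cdk2: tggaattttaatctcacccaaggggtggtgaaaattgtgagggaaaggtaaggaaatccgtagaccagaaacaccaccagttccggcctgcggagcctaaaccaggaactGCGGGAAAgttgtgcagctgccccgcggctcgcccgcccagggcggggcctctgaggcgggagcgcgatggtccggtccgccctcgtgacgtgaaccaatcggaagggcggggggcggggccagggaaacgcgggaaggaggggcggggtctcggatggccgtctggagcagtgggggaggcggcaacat
Its match began 140 bases before the start, and 1.07% of all windows held this motif, as did 2 of the 10 windows of the 7 genes. Cdkn2a is shown because its locus has separate starts for its 2 products, p19Arf upstream and the INK4 protein p16 downstream, here 12427 bases apart on the minus strand. The upstream window is chr4:89294570-89294869, and the downstream window is chr4:89282143-89282442, again with the E2F motif in capitals.
Cdkn2a upstream start: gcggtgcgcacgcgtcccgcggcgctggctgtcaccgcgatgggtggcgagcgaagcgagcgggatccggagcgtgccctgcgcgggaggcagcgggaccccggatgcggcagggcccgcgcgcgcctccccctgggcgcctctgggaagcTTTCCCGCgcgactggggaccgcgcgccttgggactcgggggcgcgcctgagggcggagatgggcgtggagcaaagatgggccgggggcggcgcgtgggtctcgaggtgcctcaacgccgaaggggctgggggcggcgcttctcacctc
Cdkn2a downstream start: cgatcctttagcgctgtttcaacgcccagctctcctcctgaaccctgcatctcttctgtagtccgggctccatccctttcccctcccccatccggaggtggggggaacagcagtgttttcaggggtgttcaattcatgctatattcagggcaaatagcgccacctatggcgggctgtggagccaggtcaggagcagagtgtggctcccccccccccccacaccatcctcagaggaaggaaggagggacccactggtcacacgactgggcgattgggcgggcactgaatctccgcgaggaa
The upstream window had 1 match, 99 bases before the start. The downstream window had none of these 8 letters in this order. These matches describe the sequence only.

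The deposited values are MAS5 signals, which are linear hybridization intensities. The brightness of a probe set depends on its sequences as well as on the amount of transcript. Signals of a gene are therefore compared below between arrays and not with those of other genes. Marker sums, rankings by brightness and the filter do use signals across probe sets. A signal was taken as above background where it exceeded the highest of 27 bacterial control probe sets with no target in these samples. That limit was 21.3, 39.99 and 87.8 in KO replicates 1, 2 and 3, against 30.5 in the wild-type array. Of the 21 probe sets, 20 were above it in all 4 arrays, and the exception was Cdk6.

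Before the results, some facts of the arrays bear on every comparison. Sex-linked transcripts paired KO replicate 1 with the wild type and KO replicate 2 with KO replicate 3. The X-inactivation RNA Xist gave 8472, 160.9 and 46.5 in KO replicates 1, 2 and 3, against 9480 in the wild-type array, and the Y-linked gene Eif2s3y gave 1.53, 654 and 1160, against 0.61. The sample titles divide the arrays in the same way, since those of KO replicates 2 and 3 carry the numbers 37 and 38 and those of KO replicate 1 and the wild type carry none. The labels do not say what the numbers stand for, and differences between the pairs in sex or in origin cannot be told apart. The 3'/5' ratio of beta-actin, which goes up as RNA degrades, was highest in KO replicate 3, at 1.82, compared with 1.251 and 1.304 in the other KO arrays and 1.11 in the wild-type array. The Gapdh ratio did not give that order, at 0.794, 1.03 and 0.842 in KO replicates 1, 2 and 3, against 0.759 in the wild-type array. The 18S ribosomal RNA signal was highest in KO replicate 3, at 2823, compared with 7.24 and 946 in KO replicates 1 and 2 and 4.64 in the wild-type array. Control transcripts added to the samples (spikes) gave a median of 0.90, 1.89 and 2.75 times their wild-type signal in KO replicates 1, 2 and 3. The probe set for Olig1 itself gave 3840, 4438 and 8548 in the KO arrays and 7618 in the wild-type array, and without the deleted part of the gene being known this does not check the labels. The arrays are named by their labels, and every direction rests on them. Of 14 measured neural stem cell markers, 12 were above background in all 4 arrays, and their summed signal was 40030 to 59553 in the KO arrays and 42974 in the wild-type array. Fabp7, the brightest of them, set the top of that range, and without it the sum was 25546 to 30172 in the KO arrays and 26427 in the wild-type array. Of the 14, 9 were lower in KO replicate 3 than in the wild type, against 53.3% of the 12228 probe sets tested below. Among them were the intermediate filament gene Nes at 846, against 1719, and the transcription factor genes Pax6 at 133.2, against 292.6, and Sox9 at 109, against 288. The others were higher there, Sox2 at 4848, against 4073, Vim at 14991, against 14465, and Notch1 at 405, against 264. Fabp7 was at 34007, against 16547, and Gli3, just under the background limit of KO replicate 3, at 87.5, against 32.2. Of 10 neuronal markers 4 were above background in all 4 arrays, with a summed signal of 1446 to 2168 in the KO arrays and 2666 in the wild-type array. That order came from Map2, which gave 1447, 784 and 593 in KO replicates 1, 2 and 3, against 1766 in the wild-type array, and without it the sum was 661 to 1072 in the KO arrays and 901 in the wild-type array. Above background in all 4 arrays were 4 of 5 astrocyte markers (summed signal 2396 to 3731 in the KO arrays and 4783 in the wild-type array), 3 of 7 oligodendrocyte markers (2190 to 3939, against 2317) and 2 of 7 mesenchymal ones (439 to 818, against 647). So were 1 of 7 microglial markers, 0 of 5 endothelial and 0 of 3 erythroid ones. Without its brightest gene, Cnp, the oligodendrocyte sum was 330 to 656 in the KO arrays and 373 in the wild-type array. The astrocyte sum without Gja1 was 1115 to 2258, against 2303, and the mesenchymal sum without Acta2 was 195 to 446, against 202. The part of these cell types in the member signals was not tested. In bulk RNA, fewer cells of a type and less RNA per cell cannot be told apart.

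In the test over all probe sets, no G1 gene was called as different in Olig1 KO from wild type. The comparison used limma on log2(signal + 14.4), after the dimmest 40% of probe sets had been left out. Log2 differences on that scale are smaller than the true ones for dim genes. This kept 19 of the 21 probe sets, from 9 of the 10 genes. At an adjusted p under 0.05, 0 of the 19 were called, against a background of 0% (0 of 12228 probe sets). At an unadjusted p under 0.05, 0 of the 19 passed, against 2.51% of all (307 probe sets). Since the wild type had 1 array, the 3 KO arrays supplied the whole estimate of spread, on the assumption that a wild-type array varies as much. The 95% interval of the log2 difference included 0 for all 19 probe sets, and it lay within 2-fold in both directions for 5, all 3 of Cdk4, 1 of Ccnd1 and 1 of Ccnd2. For the other 14 a difference of 2-fold in at least 1 direction lay inside the interval.

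**Figure D1:**
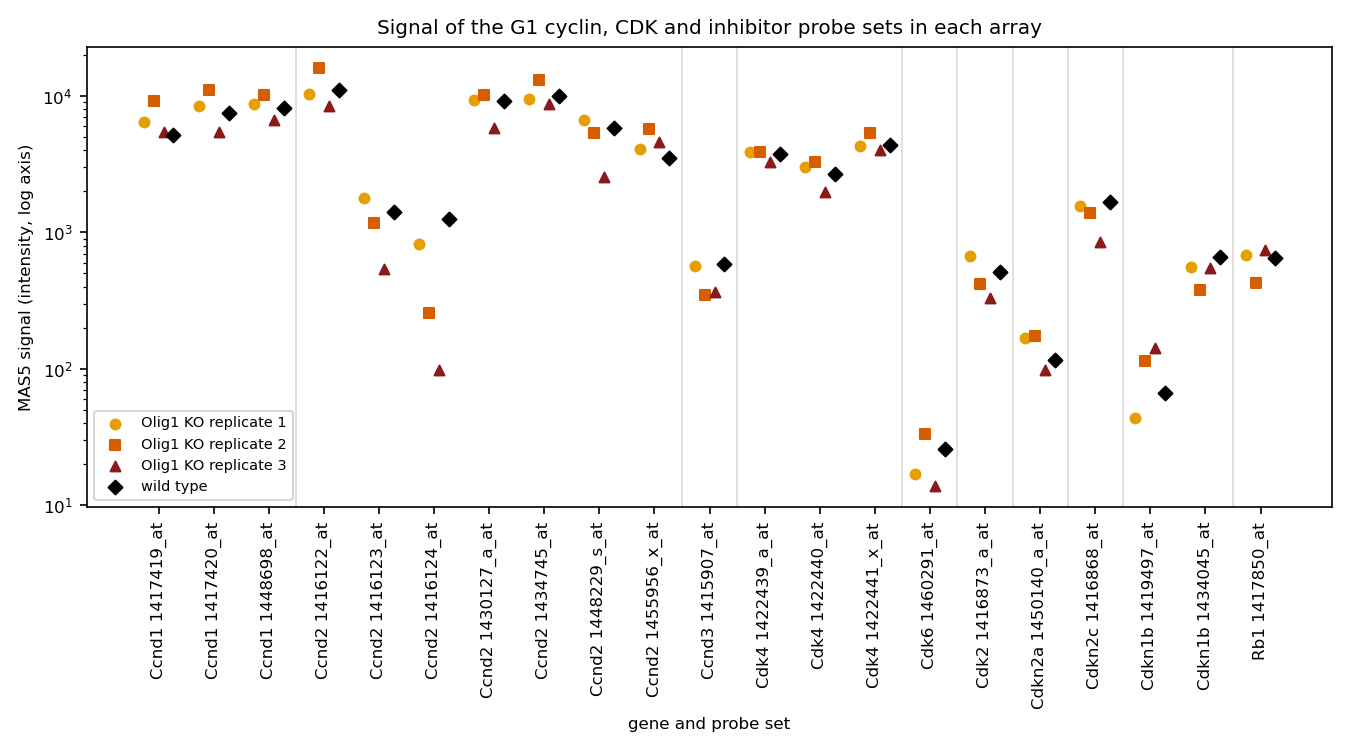
MAS5 signal (log axis) of each member probe set in the 3 Olig1 KO arrays and the wild-type array, grouped by gene. Most probe sets have the wild-type diamond among the KO points, and the Ccnd2 probe set 1416124_at shows the widest spread, from 98.2 to 817 in the KO arrays and at 1256 in wild type.

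The D-type cyclins come first, since they are the growth-factor-sensitive part of the kinase. Ccnd1, a classic target of growth factor signalling, was above background in all 4 arrays with each probe set. Its probe set 1448698_at gave 8798, 10125 and 6625 in KO replicates 1, 2 and 3, against 8178 in the wild-type array. The wild-type signal lay inside the KO range, between KO replicates 3 and 1, and the log2 difference was 0.037 (SE 0.37, 95% interval -0.84 to 0.91, limma adjusted p = 0.999). Probe set 1417420_at gave 8471, 11082 and 5485 in the KO arrays and 7486 in the wild-type array, with the same order of arrays. Probe set 1417419_at gave 6425, 9251 and 5455 in the KO arrays and 5218 in the wild-type array, so here all 3 KO arrays were above the wild type. Its log2 difference was 0.396 (SE 0.40, limma adjusted p = 0.999), or 0.18 without KO replicate 2. All 3 probe sets had KO replicate 2 highest, and they differed from each other by 0.51 log2 units in their KO replicate 3 to wild type difference.

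Ccnd2, a D-type cyclin that neural progenitors use for division, gave the widest disagreement between probe sets. Probe set 1416122_at gave 10436, 16100 and 8497 in KO replicates 1, 2 and 3, against 11125 in the wild-type array, which lay inside the KO range. Its log2 difference was 0.017 (SE 0.43, limma adjusted p = 0.999). Probe sets 1434745_at and 1430127_a_at had the same order at the extremes, KO replicate 2 highest and KO replicate 3 lowest. They differed by 0.029 (SE 0.37) and -0.17 (SE 0.41).

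The remaining Ccnd2 probe sets each departed from this order at 1 extreme only. Of these, 1416124_at, 1416123_at and 1448229_s_at had KO replicate 3 lowest but not KO replicate 2 highest. For 1455956_x_at KO replicate 2 was highest, but the wild type was lowest. Probe set 1416124_at gave 817, 255.4 and 98.2 in KO replicates 1, 2 and 3, against 1256 in the wild-type array. All 3 KO arrays were below the wild type, by 1.54-fold, 4.92-fold and 12.8-fold in signal. Its log2 difference, -2.11, was the largest in size among the members and did not pass the test (SE 0.95, 95% interval -4.37 to 0.15, limma unadjusted p = 0.063 and adjusted p = 0.999). In KO replicate 3 its signal was close to the background limit of that array, 87.8.
Probe set 1416123_at gave 1791, 1170 and 539.01 in the KO arrays and 1415 in the wild-type array, and 1448229_s_at gave 6680, 5383 and 2558, against 5876. Both had KO replicate 1 above and KO replicate 3 more than 2-fold below the wild type, so the groups overlapped. Probe set 1455956_x_at, whose suffix marks possible cross-hybridization, went the other way. It gave 4118, 5703 and 4608 in the KO arrays and 3531 in the wild-type array, with all 3 KO arrays above and a log2 difference equal to 0.43 (SE 0.35, limma adjusted p = 0.999).

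The difference of KO replicate 3 from wild type thus ran over 3.88 log2 units across the Ccnd2 probe sets. This range had rank 3 among the 1058 genes with at least 3 probe sets tested, whose median range was 1.02. In KO replicate 2 it was 2.92, also rank 3, against a median of 0.75. In KO replicate 1 it was 0.95, rank 91, against a median of 0.43. More probe sets give a wider range, and among the 139 genes with at least 5 the range of Ccnd2 had rank 2 in KO replicate 3, rank 1 in KO replicate 2 and rank 23 in KO replicate 1. Ccnd1 and Cdk4, with 3 probe sets each, ranked 893 and 995 of 1058 in KO replicate 3. The beta-actin 3'/5' ratio was also highest in KO replicate 3, whereas the Gapdh ratio was highest in KO replicate 2, and the part of RNA integrity in the Ccnd2 range was not tested, since the table does not give the place of a probe set along its transcript.

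**Figure D2:**
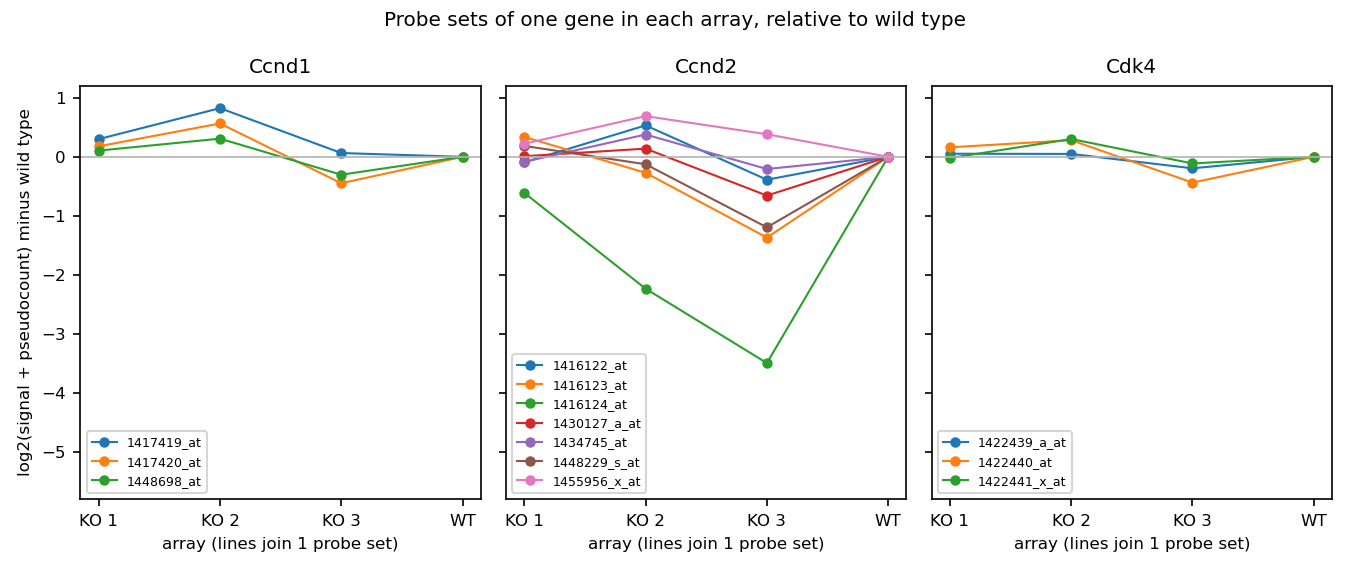
Difference of each array from wild type on the log2 scale (vertical axis), by array (horizontal axis, wild type set at 0), with 1 line per probe set for Ccnd1, Ccnd2 and Cdk4. The lines of Cdk4 and Ccnd1 stay close together, while those of Ccnd2 spread from 0.38 to -3.49 in KO replicate 3.

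Ccnd3, the D-type cyclin best known from blood cells and differentiating tissues, had all 3 KO arrays below the wild type. It gave 563, 349.4 and 362.6 in KO replicates 1, 2 and 3, against 586.7 in the wild-type array. KO replicate 1 lay close to the wild type, and the other KO arrays were about level with each other. The log2 difference was -0.49 (SE 0.39, 95% interval -1.41 to 0.44, limma adjusted p = 0.999). It came mostly from KO replicates 2 and 3, as KO replicate 1 alone was -0.058 from the wild type.

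Among the kinases, Cdk4, a partner of the D-type cyclins, had the probe set with the smallest spread over the KO arrays. This probe set, 1422439_a_at, gave 3913, 3904 and 3295 in KO replicates 1, 2 and 3, against 3773 in the wild-type array, which was inside the KO range. Its KO arrays averaged 3704 ± 354.05 (SD, n = 3), and its log2 difference was -0.031 (SE 0.33, 95% interval -0.80 to 0.74, limma adjusted p = 0.999). The other 2 probe sets, 1422440_at and 1422441_x_at, differed by 0.0018 and 0.056. The suffix of 1422441_x_at also marks possible cross-hybridization. All 3 had KO replicate 3 lowest.

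Cdk6, the other kinase partner of the D-type cyclins, was not above background in any array. It gave 16.9, 33.03 and 13.7 in KO replicates 1, 2 and 3, against 25.6 in the wild-type array, so no fold change is given. With 1 dim probe set, this says nothing of whether the cells express Cdk6.
Cdk2, the kinase of the later G1 step, gave 676, 416.2 and 330.8 in the KO arrays and 512.2 in wild type, which fell between KO replicates 1 and 2. Its log2 difference was -0.17 (SE 0.45, limma adjusted p = 0.999), and KO replicates 3 and 1 differed from each other by -1.0004 log2 units, more than either differed from the wild type.

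The inhibitors did not share 1 direction. Cdkn2c, which encodes the INK4 protein p18, had all 3 KO arrays below the wild type. It gave 1569, 1392 and 848 in KO replicates 1, 2 and 3, against 1658 in the wild-type array. KO replicate 3 was the low array, at 1.96-fold below the wild type, and the log2 difference was -0.43 (SE 0.43, limma adjusted p = 0.999). Without KO replicate 3 it was -0.16, and for KO replicate 1 alone it was -0.079.
Cdkn2a gave 168.9, 172.5 and 97.4 in the KO arrays and 115.2 in the wild-type array. The KO arrays lay on both sides of the wild type, and the signal of KO replicate 3 was just above the background limit of that array. The log2 difference was 0.27 (SE 0.41, limma adjusted p = 0.999), and it was 0.16, 0.14 and 0.51 without KO replicates 1, 2 and 3. A single probe set measured the locus, and from its signal transcripts of the upstream and the downstream start cannot be told apart.

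Cdkn1b, the gene of p27, was measured by 2 probe sets that differed in their order of arrays. The one tested, 1434045_at, gave 553, 381.1 and 543.9 in KO replicates 1, 2 and 3, against 656 in the wild-type array. All 3 KO arrays were below the wild type, with KO replicate 2 lowest and a log2 difference equal to -0.42 (SE 0.36, 95% interval -1.28 to 0.44, limma adjusted p = 0.999). The other, 1419497_at, gave 43.6, 113.4 and 141.4 in the KO arrays and 66.4 in the wild-type array. It was above background in every array but was left out by the filter, and its KO arrays lay on both sides of the wild type. With the mean of both probe sets the Cdkn1b difference was -0.023, and that of 1434045_at was -0.25 without KO replicate 2.
Rb1, the substrate of the CDK4 and CDK6 kinases, gave 683, 425.5 and 746 in KO replicates 1, 2 and 3, against 648.6 in the wild-type array. KO replicate 2 was the low array, the wild type lay inside the KO range, and the log2 difference was -0.11 (SE 0.41, limma adjusted p = 0.999). Among the 19 probe sets tested, that of Rb1 was the only 1 for which KO replicate 3 gave the highest signal, against 28.3% of all. The Cdkn1b probe set left out by the filter, 1419497_at, also had KO replicate 3 highest.

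**Figure D3:**
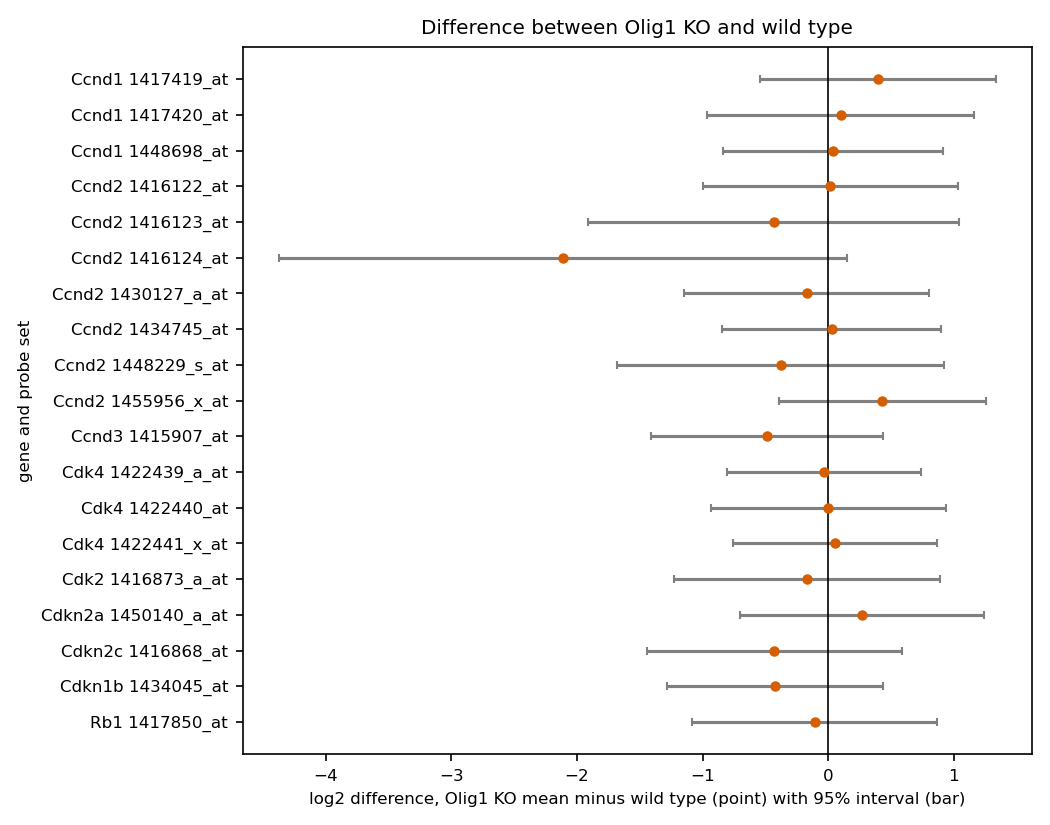
Log2 difference of the Olig1 KO mean from wild type (points) with its 95% interval (bars) for the 19 probe sets tested. Every interval crosses 0, and the Ccnd2 probe set 1416124_at is the farthest out at -2.11.

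Across the members, the 3 KO arrays were all above the wild type in 2 of 19 probe sets, against 22.6% of all probe sets tested. They were all below it in 4 of 19, against 23.6% of all. The first 2 were the Ccnd1 probe set 1417419_at and the Ccnd2 probe set 1455956_x_at, and the other 4 were 1416124_at of Ccnd2 and the probe sets of Ccnd3, Cdkn2c and Cdkn1b. The median log2 difference was -0.031 over the 19 probe sets and -0.019 over all 12228. Probe sets of 1 gene share their transcripts, so these counts are not over independent genes.

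The spread among KO arrays was larger in the members than in the table as a whole. The median SD of the log2 signal over the 3 KO arrays was 0.42 for the 19 probe sets and 0.29 for all probe sets tested. KO replicate 3 gave the lowest of the 4 signals in 14 of 19, against 36.5% of all probe sets, and KO replicate 2 gave the highest in 10 of 19, against 22.4%. Among the brightest 10% of probe sets, which hold 11 of the 19, these shares were 28.3% and 21%, with 9 of the 11 in each. Those 11 probe sets belong to Ccnd1, Ccnd2 and Cdk4 only, so they are not independent genes. Ccnd1 and Ccnd2, which hold 10 of the 19 probe sets, supplied 8 of the 14 and 7 of the 10. Among the 9 genes tested, 6 had KO replicate 3 lowest in at least 1 probe set and 4 had it in every one. A gene with more probe sets reaches the first of these counts more easily, and neither was taken over all genes. The median log2 difference from wild type was 0.072, 0.14 and -0.39 in KO replicates 1, 2 and 3 for the members, and 0.016, -0.0074 and -0.050 for all probe sets. Sex, RNA integrity and the spike signal were not tested as a part of these differences.

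**Figure D4:**
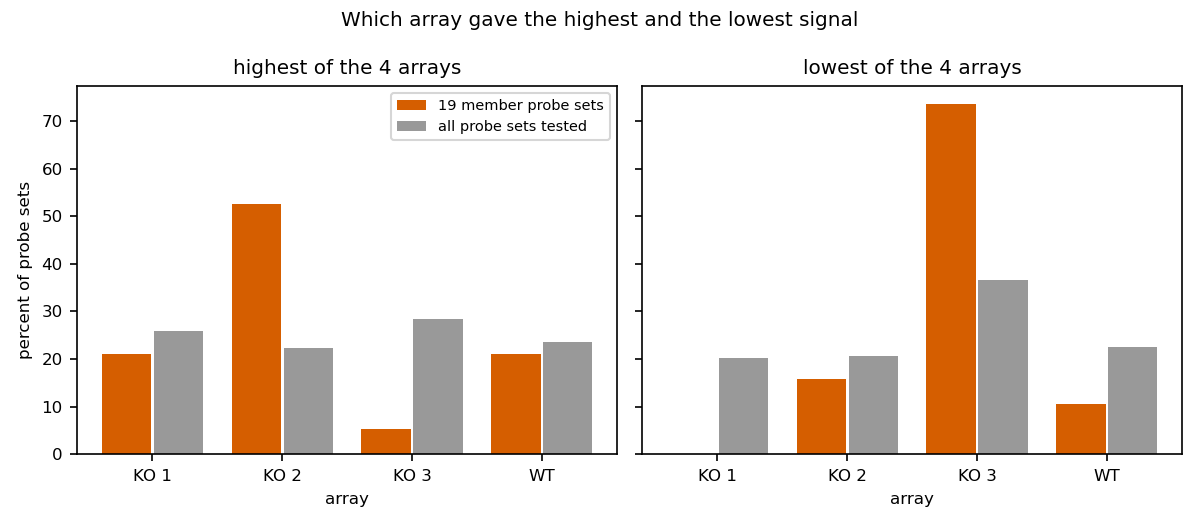
Percent of probe sets (vertical axis) for which each array (horizontal axis) gave the highest signal (left panel) or the lowest (right panel), for the 19 member probe sets and for all 12228 tested. KO replicate 3 is lowest in 14 of 19 member probe sets against 36.5% of all, and KO replicate 2 is highest in 10 of 19 against 22.4%.

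Within the first pair of arrays, only KO replicate 1 and the wild type can be compared, 1 array each and without a test. Of the 19 probe sets, 0 were at least 2-fold apart, against 1.93% of all. The log2 difference largest in size among the 19 was that of Ccnd2 1416124_at, at -0.61. KO replicate 1 was below the wild type in 7 of 19 member probe sets, against 47.7% of all. KO replicates 2 and 3, which make the second pair and carry the same label, were at least 2-fold apart in 4 of 19, against 6.56% of all. Those 4 were 3 Ccnd2 probe sets and 1 of Ccnd1, each lower in KO replicate 3. In 16 of the 19 member probe sets KO replicate 3 was below KO replicate 2, against 54.2% of all.

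Other regulators of the same step were taken from a list of 30 genes, of which 25 were tested with 1 probe set a gene, the brightest. None of the 25 was called in limma, with 0 at an unadjusted p under 0.05, against 0% called and 1.91% at the unadjusted level among all 7587 genes. In 8 of the 25 all 3 KO arrays were above the wild type, against 23.3% of all genes, and in 7 they were below, against 20.5%. The median log2 difference was -0.097, compared with 0.00045 over all genes. E2f6, an E2F factor that represses, gave 692, 506.8 and 511.2 in KO replicates 1, 2 and 3, against 923 in the wild-type array, and differed by -0.70 (SE 0.35, limma adjusted p = 0.999). Ccnh, the cyclin of the CDK-activating kinase, gave 1677, 2431 and 3378 in the KO arrays and 1600 in the wild-type array, and Skp2, the ubiquitin ligase subunit that marks p27 for degradation, gave 602, 749.8 and 914, against 533. Both had all 3 KO arrays above the wild type without passing the test.

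The CIP/KIP inhibitors other than p27 were also not called. The brighter probe set of Cdkn1a, the p53 target that encodes p21, gave 4743, 5718 and 3575 in KO replicates 1, 2 and 3, against 3330 in the wild-type array (log2 difference 0.46, SE 0.38, limma adjusted p = 0.999). Its other probe set gave 1457, 917.5 and 635.5 in the KO arrays and 746 in the wild-type array, so there the groups overlapped. Cdkn1c, which encodes p57 and is imprinted, gave 88.5, 243.8 and 630.5 in the KO arrays and 434.8 in the wild-type array, with KO arrays on both sides of the wild type. Ccne1, an E-type cyclin and partner of CDK2, gave 280.8, 269.2 and 163.9 in the KO arrays and 244.8 in the wild-type array, inside the KO range.

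Genes that E2F factors switch on at the start of DNA synthesis give a reading downstream of the kinases. Of 27 listed, 24 were tested and none was called, with 0 at an unadjusted p under 0.05. E2f1, Rbl1, Ccne1 and Ccne2 are also among the other G1 regulators above, so the 2 lists are not separate sets of genes. All 3 KO arrays were below the wild type in 4 and above it in 1, against 20.5% and 23.3% of all genes. The mean of the KO arrays was lower in 18 and higher in 6, and the median log2 difference was -0.17. Among all 7587 genes the mean of the KO arrays was lower in 3788 and higher in 3799, and the difference between the list and all genes was not tested. The KO arrays did not share 1 direction in this list. KO replicate 1 was above the wild type in most of the 24 genes, whereas KO replicate 3 was below it in most. Over all 12228 probe sets, KO replicate 1 was below the wild type in 47.7% and KO replicate 3 in 53.3%. Rrm1, a subunit of ribonucleotide reductase, gave 3336, 1760 and 1646 in KO replicates 1, 2 and 3, against 3097 in the wild-type array, so KO replicate 1 was the high array. Fen1, the flap endonuclease of lagging-strand synthesis, gave 1036, 843 and 811 in the KO arrays and 686 in the wild-type array, and differed by 0.37 (SE 0.33, limma adjusted p = 0.999). E2f1, itself an E2F target, gave 254.6, 174.3 and 188.7 in the KO arrays and 265.7 in the wild-type array, and differed by -0.36 (SE 0.36).

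**Figure D5:**
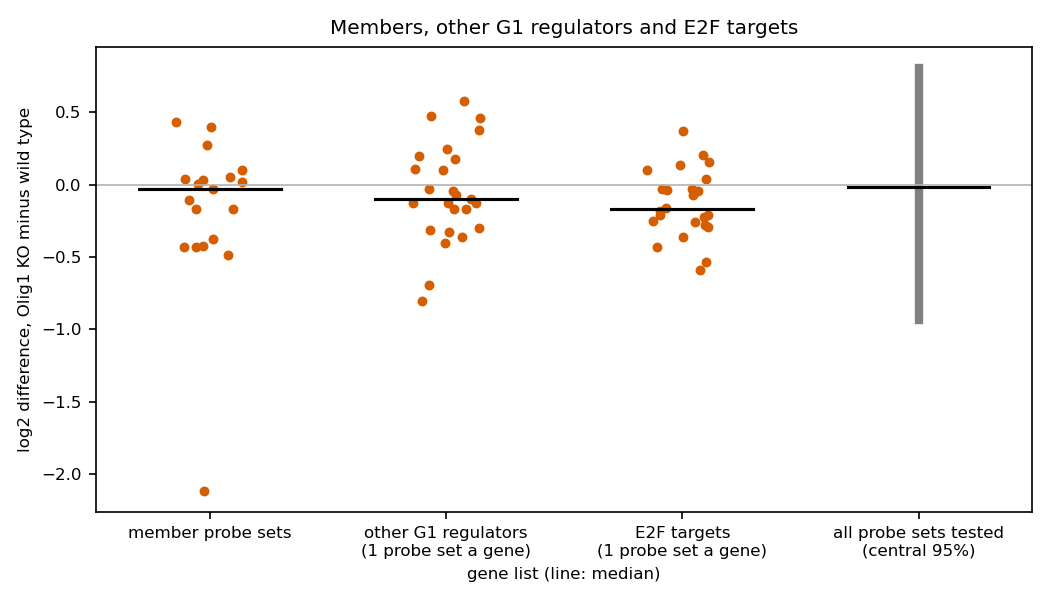
Log2 difference of Olig1 KO from wild type (vertical axis) for the 19 member probe sets, 25 other G1 regulators and 24 E2F targets (points, with the median as a line), beside the central 95% of all 12228 probe sets (bar). The medians are -0.031, -0.097 and -0.17, and only Ccnd2 1416124_at lies below the bar, whose lower end is at -0.93. E2f1, Rbl1, Ccne1 and Ccne2 are in both of the other lists.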

How the data were processed

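Total RNA of 4 neural stem cell samples was measured on Affymetrix arrays, 1 per sample. The table deposited by the authors holds linear MAS5 intensities, per the submitters' processing notes; the MAS5 version is not given in the sources used here. As deposited, the means after trimming 2% from each tail agreed within 1.00003-fold between arrays, so no further scaling was applied. The table held 22690 probe sets, 20393 of them with 1 gene symbol in the platform annotation, 691 with several and 1606 with none. Control probe sets were left out, which gave 20380. Intensities were turned into log2(signal + 14.4), the pseudocount being 0.1 times the median of all values. Probe sets among the dimmest 40% by mean log2 value were dropped, and 12228 remained. The KO arrays were set against the wild-type array with limma 3.58.1 in R 4.3.3 (lmFit and eBayes, two-sided, 2 residual and 4.88 prior degrees of freedom), with Benjamini-Hochberg adjustment over all kept probe sets and a threshold of 0.05. The number of arrays limits the precision. The fit was tested on simulated data. The 10 genes, the other lists and the tests were chosen with earlier results of these data known. All member probe sets were named, and of each other list the 3 genes with the largest moderated t together with Cdkn1a, Cdkn1c and Ccne1. Motifs were searched on both strands of the RefSeq promoter windows. Alternatives covered scaling, pseudocount, filter, the choice of probe set, eBayes settings, the pair of arrays as a block and each KO array left out.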

Additional observations from a re-analysis of the deposited data

How the results depend on the processing

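No G1 member was called under any of the 14 alternatives, and over all probe sets only the fit without KO replicate 1 made calls. Leaving out 1 KO array gave 0 to 2 calls over all probe sets. The 2, both without KO replicate 1, were Eif2s3y and Tmem87a. The count at an unadjusted p under 0.05, 307 in the fit reported, was 1016, 103 and 452 without KO replicates 1, 2 and 3, 557 with no filter, 151 with 60% left out and 151 with the pair as a block. With 1 value per gene it was 168 with the brightest probe set and 180 with the mean. The only member to reach an unadjusted p under 0.05 was Ccnd2 1416124_at, in 4 alternatives, with a lowest adjusted p of 0.49 without KO replicate 1. Its log2 difference was between -2.86 and -0.61 over the alternatives.

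Of 207 alternative values of member differences, 27 changed sign, none past the threshold, and the cause was not tested. With quantile normalization the values were -0.0077 and -0.091 for Ccnd1 1417420_at and 1448698_at, and -0.22 and -0.16 for Ccnd2 1416122_at and 1434745_at. With the mean of all probe sets Ccnd2 was at -0.37. With a block for the pair of arrays, where the value equals KO replicate 1 minus wild type, Ccnd2 was at -0.092 (1416122_at), 0.34 (1416123_at), 0.0099 (1430127_a_at), -0.085 (1434745_at) and 0.18 (1448229_s_at), Cdk2 at 0.39, Cdk4 at 0.052 (1422439_a_at) and -0.021 (1422441_x_at), and Rb1 at 0.072. With 1 KO array left out, the range was -0.13 to 0.37 and -0.099 to 0.21 for Ccnd1 1417420_at and 1448698_at. For Ccnd2 it was -0.24 to 0.22 (1416122_at), -0.82 to 0.033 (1416123_at), -0.32 to 0.074 (1430127_a_at), -0.15 to 0.15 (1434745_at) and -0.66 to 0.029 (1448229_s_at). It was -0.45 to 0.050 for Cdk2, -0.073 to 0.051, -0.14 to 0.22 and -0.067 to 0.14 for Cdk4 1422439_a_at, 1422440_at and 1422441_x_at, and -0.26 to 0.14 for Rb1. The member probe sets with all KO arrays on 1 side of the wild type numbered 9 to 12 of 19 with 1 KO array left out, chosen after seeing the data, against 6 with all 3. That count rises by construction with fewer arrays, as it does for all probe sets, to 72.4%, 56.3% and 63.7% without KO replicates 1, 2 and 3, against 46.2%. The replicate numbers of the labels pair no samples, and the block above is the split seen in the sex-linked transcripts.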
